A study of Mus musculus with 30 samples.

Results

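A set of 9 genes of prostaglandin metabolism were followed in the mouse colon under AOM/DSS, a model of colitis-associated cancer. They are Ptgs1, Ptgs2, Ptges, Ptgis, Ptgds, Hpgd, Ptger2, Ptger3 and Ptger4, taken by gene name from the merged count table, 9 of its 46078 genes. The rule itself uses no measured value, but the genes were chosen with earlier results of these data known. The 30 libraries came from C57BL/6J wild-type mice, 5 females and 5 males in each of 3 conditions, with 1 library per mouse. AOM/DSS mice received the colon carcinogen azoxymethane (AOM) once by intraperitoneal injection at 10 mg/kg, then dextran sulfate sodium (DSS), which irritates the gut lining, at 2.5% in the drinking water in 3 cycles, and were killed at 9 or 15 weeks. The controls, called vehicle, got saline injections and were taken at 9 weeks alone, so that the treatment at 15 weeks cannot be told apart from the longer time and greater age. Mice were 5 to 10 weeks old at the start. The paper places the 9-week time soon after the last DSS cycle and the 15-week time long after it. A difference between 9 and 15 weeks therefore cannot be told apart from the time since DSS. All mice had tumours at 15 weeks, but the paper describes the sequenced colon tissue as not tumour. Each library holds the RNA of a scrape of the colon's epithelial layer, a mixture of cells in which fewer cells of a type and less RNA per cell cannot be told apart.

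Prostaglandins are short-lived lipid signals made from arachidonic acid. A phospholipase frees arachidonic acid from membranes, a cyclooxygenase (Ptgs1 or Ptgs2) turns it into prostaglandin H2, and terminal synthases make the individual prostaglandins from that: Ptges makes prostaglandin E2 (PGE2), Ptgds prostaglandin D2 and Ptgis prostacyclin. Hpgd, the 15-hydroxyprostaglandin dehydrogenase, starts the breakdown of PGE2. PGE2 acts on 4 receptors, of which Ptger2 (EP2) and Ptger4 (EP4) raise cyclic AMP while Ptger3 (EP3) mostly lowers it. In the colon PGE2 is known for its parts in epithelial repair, in inflammation and in tumour growth, and cyclooxygenases are the targets of aspirin and related drugs.

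The 30 libraries held 9265804 to 30806392 counts on genes, the fewest in female vehicle replicate 5, where 3 counts were worth 0.324 CPM (counts scaled to library depth, here by the plain total) against 0.0974 in the deepest library. All 14 epithelial markers were expressed, with Epcam at 1312 to 1861 CPM, here and below after TMM scaling of the totals. Male vehicle replicate 1 stood apart: its 12 smooth muscle markers summed to 6795 CPM against 57.3 to 328 in the other 29 libraries, its fibroblast markers summed to 1416 CPM, the highest of all, and Cdx2, an epithelial transcription factor, was at 3.67 CPM against 54.6 to 378. Female AOM/DSS 9 weeks replicate 5 had the neutrophil gene S100a8 at 0 and Ptgs2 at 0.537 CPM, levels that the vehicle libraries also reached. Tested changes that rest on either library are given with and without it, while correlations use all 30 libraries unless stated. By the same test as below, at 9 weeks against vehicle the DEGs among markers were 5 of 7 tested neutrophil markers, 4 of 10 macrophage markers, 2 of 7 mast cell markers and 1 of 14 epithelial markers, all higher, and 1 of 10 tuft cell markers, lower. At 15 weeks, 9 of 12 smooth muscle, 6 of 14 fibroblast, 2 of 10 endothelial and 1 of 10 tuft cell markers were lower, while 2 neutrophil, 2 mast cell and 2 epithelial markers were higher. From 9 to 15 weeks 5 neutrophil, 2 macrophage, 2 fibroblast and 1 endothelial markers fell. Of the 4 tested enteric glia and neuron markers 0 were DEGs by edgeR or by DESeq2 in these comparisons, with 1, 2 and 1 at an unadjusted edgeR p under 0.05. By DESeq2 the smooth muscle count at 15 weeks was 0 (2 of 12 at an unadjusted p under 0.05), and without male vehicle replicate 1 edgeR also gave 0 smooth muscle (3 of 12 at an unadjusted p under 0.05) and 1 fibroblast marker. Without that library 8 macrophage markers were higher at 9 weeks, the tuft cell marker did not pass at either time, and from 9 to 15 weeks 7 fibroblast markers fell. Without female 9 weeks replicate 5, 9 fibroblast and 5 macrophage markers fell from 9 to 15 weeks. The tuft cell list itself holds 2 prostanoid genes, Ptgs1 and Hpgds, and the tuft cell marker called lower at both times was Hpgds.

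On GRCm38, the build of the files, 4 of the 9 genes lie on chromosome 2: Ptgs1 (ENSMUSG00000047250, chr2:36230426-36252272, plus strand), Ptges (ENSMUSG00000050737, chr2:30889471-30929863, minus), Ptgis (ENSMUSG00000017969, chr2:167191805-167240604, minus) and Ptgds (ENSMUSG00000015090, chr2:25466709-25470046, minus). Ptgs2 (ENSMUSG00000032487) is at chr1:150100031-150108227 on the plus strand and Hpgd (ENSMUSG00000031613) at chr8:56294552-56321046 on the plus strand. The receptors are Ptger2 (ENSMUSG00000037759) at chr14:44988195-45003820, plus strand, Ptger3 (ENSMUSG00000040016) at chr3:157566892-157645888, plus strand, and Ptger4 (ENSMUSG00000039942) at chr15:5206661-5244187, minus strand. Other annotated genes overlap 6 of them: the protein-coding Ttc33 and the pseudogene Gm15937 overlap Ptger4, and noncoding or pseudogene entries overlap Ptgs1, Ptges, Ptgis, Hpgd and Ptger2. Counts in those overlaps are uncertain.

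Hpgd was the most abundant of the 9 genes in every library. On the TPM scale (the share of a library's transcripts, which allows for gene length), its vehicle median was 88.6 with a range of 32.2 to 163.3, and across all 30 libraries it ran from 18.9 to 163.3. Ptger4 came next with a vehicle median of 4.43 TPM (2.83 to 6.95), and the ranges of both genes did not meet in any condition. Below them the vehicle medians were 1.43 TPM for Ptger3, 1.39 for Ptgs1, 0.743 for Ptges, 0.0908 for Ptgis, 0.0473 for Ptgs2, 0.0220 for Ptger2 and 0 for Ptgds, and each of these neighbours overlapped the next. The order of the vehicle medians therefore had only 1 step, between Hpgd and Ptger4, that exceeded the spread over mice.

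At 9 weeks the order of the medians was Hpgd (54.9 TPM), Ptger4 (7.51), Ptgs2, Ptges (2.06), Ptgs1, Ptger3 (0.873), Ptger2 (0.0907), Ptgis (0.0785) and Ptgds (0), with a gap between neighbouring ranges after Hpgd and after Ptger3. Ptgs2 had the third place with a median of 2.29 TPM, although its range of 0.0412 to 27.6 TPM overlapped those of Ptger4 above it and Ptges below it. Its constitutive relative Ptgs1 had a median of 1.71 TPM there. Ptgs2 lay above Ptgs1 in 0 of 10 vehicle libraries, in 5 of 10 libraries at 9 weeks and in 0 of 10 at 15 weeks, with median ratios of Ptgs2 to Ptgs1 of 0.0413, 1.07 and 0.0368. The ratio of the degrading enzyme Hpgd to the PGE2 synthase Ptges had medians of 108 in vehicle, 25.9 at 9 weeks and 70.2 at 15 weeks, with overlapping ranges. At 15 weeks the medians were 57.3 TPM for Hpgd, 5.62 for Ptger4, 0.931 for Ptgs1, 0.699 for Ptges, 0.621 for Ptger3, 0.0928 for Ptgis, 0.0356 for Ptgs2 and 0 for Ptgds and Ptger2, and the ranges were apart between Hpgd and Ptger4, between Ptger4 and Ptgs1 and between Ptger3 and Ptgis. TPM medians serve to order genes within a condition, and they can differ from the counts between conditions. Ptgs1 had medians of 1.39, 1.71 and 0.931 TPM in vehicle, at 9 and at 15 weeks, but of 6.78, 6.715 and 6.87 CPM. Changes between conditions were tested on counts.

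**Figure D1:**
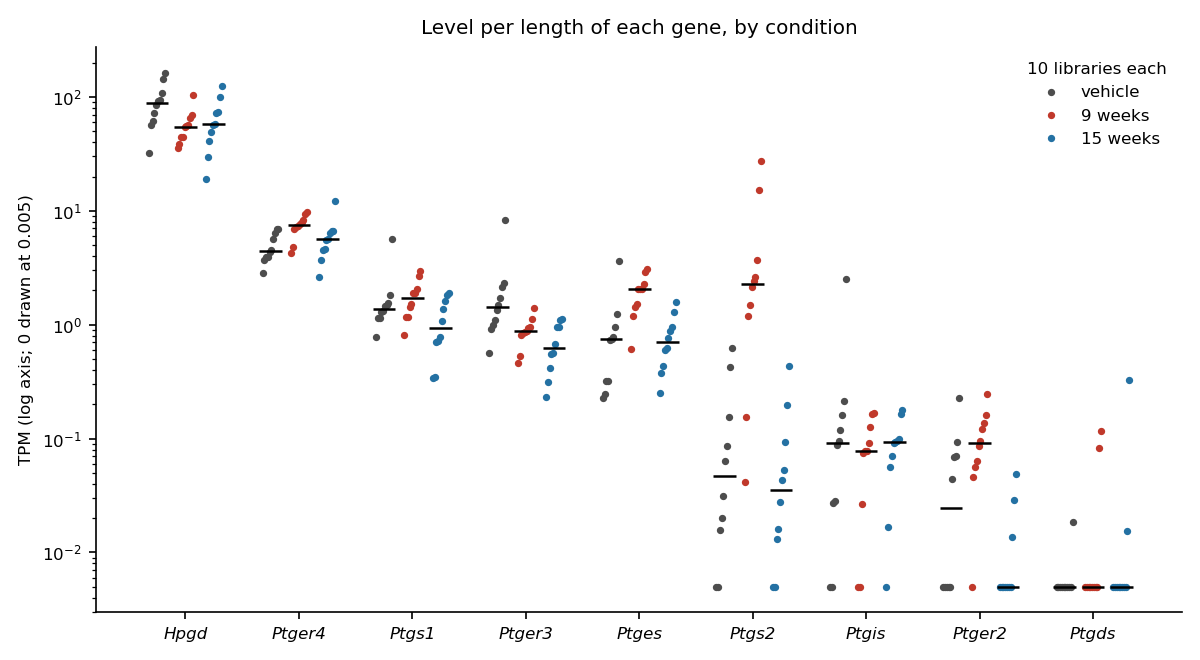
Levels of the 9 genes in TPM on a log axis, 1 point per library (n = 10 per condition) and a black line at the median, with libraries listed at 0 drawn at the bottom of the axis. Hpgd lies above every other gene in each condition, and Ptgs2 has its widest spread at 9 weeks, from 0.0412 to 27.6 TPM.

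The first comparison asked which of these genes changed at 9 weeks of AOM/DSS against vehicle, with the changes of both sexes averaged. The cyclooxygenase Ptgs2 and the PGE2 synthase Ptges rose, and the PGE2-degrading enzyme Hpgd and the receptor Ptger3 fell. Ptgs2 rose 44.5-fold (log2 fold change 5.48, SE 0.88, edgeR quasi-likelihood adjusted p = 7.61e-05), Ptges rose 1.84-fold, Hpgd fell 1.86-fold and Ptger3 fell 2.32-fold. The other 4 tested genes, Ptgs1, Ptgis, Ptger2 and Ptger4, did not pass. Differentially expressed genes (DEGs) were those with an adjusted p under 0.05, a log2 fold change beyond 0.4 in either direction and a mean of at least 1 FPKM (fragments scaled for gene length and library depth) in a compared condition. Of all 16261 genes tested 8.29% were DEGs, 5.51% higher and 2.78% lower. The median log2 fold change was 0.02 over the 8 tested members and -0.02 over all genes tested. Ptgds was too low to be tested.

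**Figure D2:**
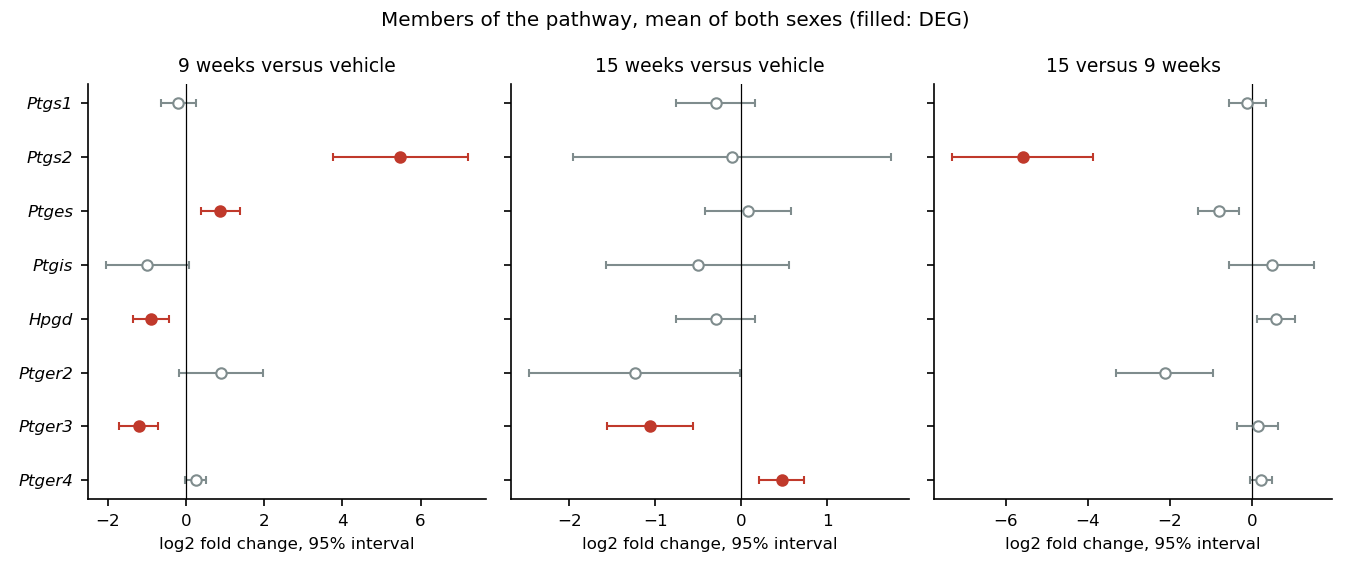
Log2 fold changes of the 8 tested genes in the 3 comparisons averaged over the sexes, with 95% intervals and DEGs as filled points. At 9 weeks Ptgs2 and Ptges lie above 0 and Hpgd and Ptger3 below it, at 15 weeks only Ptger3 (-1.06) and Ptger4 (0.47) are DEGs, and from 9 to 15 weeks only Ptgs2 (-5.58) is.

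The sequences just before the starts of these 4 genes are shown because they are the stretches in which a reader can look for what the genes called at 9 weeks share. They are the 250 bases before the RefSeq start on GRCm38.p6, 5′ to 3′ on the gene's own strand, and capitals mark matches to a few short motifs on either strand. The windows are chr1:150099781-150100030 on the plus strand for Ptgs2, chr2:30903298-30903547 on the minus strand for Ptges, chr8:56294302-56294551 on the plus strand for Hpgd and chr3:157566626-157566875 on the plus strand for Ptger3. The Ptges window lies inside the counted gene (chr2:30889471-30929863), since the RefSeq start of Ptges is not the start of that interval.
Ptgs2: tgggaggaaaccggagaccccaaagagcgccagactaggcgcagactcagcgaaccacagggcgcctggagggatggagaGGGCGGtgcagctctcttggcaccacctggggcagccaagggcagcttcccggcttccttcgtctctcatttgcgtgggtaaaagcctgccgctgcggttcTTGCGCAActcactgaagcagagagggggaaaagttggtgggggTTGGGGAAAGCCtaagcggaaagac
Ptges: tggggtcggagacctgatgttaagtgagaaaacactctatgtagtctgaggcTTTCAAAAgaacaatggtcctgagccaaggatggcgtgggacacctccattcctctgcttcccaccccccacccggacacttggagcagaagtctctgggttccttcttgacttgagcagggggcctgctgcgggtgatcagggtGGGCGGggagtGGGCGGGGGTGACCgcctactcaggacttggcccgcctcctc
Hpgd: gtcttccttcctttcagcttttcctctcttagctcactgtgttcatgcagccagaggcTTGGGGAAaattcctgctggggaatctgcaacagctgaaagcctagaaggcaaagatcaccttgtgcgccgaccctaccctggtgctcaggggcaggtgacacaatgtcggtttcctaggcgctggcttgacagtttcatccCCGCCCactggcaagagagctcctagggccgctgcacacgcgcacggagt
Ptger3: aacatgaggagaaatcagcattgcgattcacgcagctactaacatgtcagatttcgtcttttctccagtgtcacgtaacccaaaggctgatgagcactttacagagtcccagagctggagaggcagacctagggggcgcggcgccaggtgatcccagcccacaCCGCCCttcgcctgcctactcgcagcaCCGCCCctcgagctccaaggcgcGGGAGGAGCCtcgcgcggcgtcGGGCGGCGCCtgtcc

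Among these 4 windows, the NF-kB pattern (GGG and CC with any 5 bases between them), named for a family of inflammatory transcription factors, was found in Ptgs2, Ptges and Ptger3 and not in Hpgd, so it was shared by genes that moved in opposite directions. RefSeq windows were matched for 8 of the 9 members (none for Ptgis), and 5 of the 8 held that pattern, against 46% of the 32536 windows of this length. The C/EBP pattern TTNCNNAA was in 5 of 8, against 36.8%, and the GC box GGGCGG in 5 of 8, against 33%. The AP-1 pattern TGANTCA was in 1 (Ptgds), against 6.73%. No member's window held the CRE half-site CGTCA, the E-box CACGTG or the TATA box TATAAA, which were in 17.9%, 6.04% and 12.3% of all windows. In Ptgs2 a C/EBP match at -25 to -18 overlaps the NF-kB match at -23 to -14, counted from the start, and in Ptges (-38 to -29) and Ptger3 (-15 to -6) the NF-kB match shares bases with a GC box. These matches are descriptions of letters, and no binding was measured. Only the 250 bases before each RefSeq start were searched, so a motif absent there may still lie just past the start or farther upstream.

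Ptgs2 is the inducible cyclooxygenase (COX-2), made in response to cytokines and injury. In vehicle, its level was 0.985, 0.122, 0.0740, 0.265 and 0 CPM in the 5 females and 3.45, 0.642, 0.262, 0.552 and 3.28 CPM in the 5 males. At 9 weeks it was 18.4, 13.8, 8.92, 164 and 0.537 CPM in females and 24.1, 88.1, 7.36, 1.11 and 13.2 CPM in males. At 15 weeks it was 0.192, 0.0525, 0.802, 0.392 and 2.54 CPM in females and 0.178, 0.489, 0.362, 0.0689 and 1.51 CPM in males. Of the 10 libraries at 9 weeks 8 lay above the highest vehicle library, and the remaining ones, 1 of each sex, lay within the vehicle range. Ptgs2 was thus high in most colons at 9 weeks, but over a range from 0.537 to 164 CPM. At 15 weeks all 10 colons lay within the range of the vehicle libraries of both sexes. Female 15 weeks replicate 5, at 2.54 CPM, lay above all 5 female vehicle libraries. The condition means were 0.963 ± 1.30 CPM in vehicle, 34.0 ± 52.2 at 9 weeks and 0.658 ± 0.791 at 15 weeks (SD, n = 10 each).

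At 9 weeks in females 2 members (Ptgs2 and Ptges, both higher) were DEGs against 2.90% of genes, 2.42% higher and 0.480% lower. In males 3 were (Ptgs2 and Ptger4 higher and Ptger3 lower) against 7.31%, 4.42% higher and 2.88% lower. The rise of Ptgs2 was a DEG in each sex, with log2 fold changes of 6.94 in females (SE 1.36, edgeR adjusted p = 0.00314) and 4.01 in males (SE 1.12, edgeR adjusted p = 0.0223). The vehicle levels behind these folds are low: the 5 female vehicle libraries held 39 Ptgs2 counts in all and 1 of them none, so the size of the female fold rests on few counts. In males the call was lost without vehicle replicate 3 (3.74, edgeR adjusted p = 0.0544) or without 9 weeks replicate 2, the male library of highest Ptgs2 (2.79, edgeR adjusted p = 0.111). Averaged over the sexes it held without any 1 of the 30 libraries, with log2 fold changes of 4.50 to 6.13.

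Neutrophil markers moved with Ptgs2. S100a8, a defining neutrophil gene, was at 0 in 7 of 10 vehicle libraries and at most 0.520 CPM in the others, reached 26.0 CPM at 9 weeks with 1 library at 0, and lay between 0.105 and 4.35 CPM at 15 weeks. Mmp8 was at 0 in all 10 vehicle libraries and Fpr1 and Retnlg in 9 and 7 of them. The 9 markers of that list summed to 12.9 to 179 CPM in vehicle, 11.0 to 215 at 9 weeks and 8.03 to 141 at 15 weeks, but Ly6g alone had medians of 98.5, 104 and 50.2 CPM. The 11 macrophage markers summed to 17.1 to 246 CPM in vehicle, 59.7 to 249 at 9 weeks and 28.2 to 142.8 at 15 weeks. The part of these cells in the rise of Ptgs2 was not tested.

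Ptgs1 is the constitutive cyclooxygenase (COX-1), present in many resting cells. Its level ran from 5.76 to 17.7 CPM in vehicle, with the highest value in male vehicle replicate 1, from 3.87 to 10.6 CPM at 9 weeks and from 2.20 to 10.7 CPM at 15 weeks. The 3 ranges overlapped. The log2 fold change was -0.20 at 9 weeks (SE 0.23, edgeR adjusted p = 0.63) with a 95% interval of -0.65 to 0.26, and 0.00 without male vehicle replicate 1, and at 15 weeks it was -0.30 (edgeR adjusted p = 0.37). Over the same libraries, then, Ptgs2 passed the test and Ptgs1 did not.

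Ptges, also called microsomal PGE synthase 1, makes PGE2 from the product of the cyclooxygenases. In vehicle, Ptges was at 5.17, 1.70, 1.48, 2.78 and 1.81 CPM in females and 12.0, 5.14, 3.74, 3.18 and 5.30 CPM in males. At 9 weeks it was at 8.07, 8.35, 6.32, 7.65 and 2.85 CPM in females and 8.43, 7.25, 8.58, 5.13 and 9.79 CPM in males. At 15 weeks it was at 2.97, 3.52, 3.81, 1.75 and 4.78 CPM in females and 3.50, 3.92, 5.47, 5.23 and 7.19 CPM in males. Among females 4 of 5 libraries at 9 weeks lay above every vehicle library, while among males no library did, because male vehicle replicate 1 was the highest of all 30. The log2 fold change at 9 weeks was 0.88 (SE 0.26, edgeR adjusted p = 0.0175), and it was 1.10 without male vehicle replicate 1 (edgeR adjusted p = 0.00182). Within a sex the rise passed in females (1.35, SE 0.37, edgeR adjusted p = 0.0322) and not in males (0.41, SE 0.36, edgeR adjusted p = 0.501). The female call was lost in 7 of the fits that left out 1 library, female vehicle replicate 2, 3, 4 or 5 or female 9 weeks replicate 1, 2 or 4, with an edgeR adjusted p of up to 0.105.

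Ptgis and Ptgds, the prostacyclin and prostaglandin D2 synthases, were near the limit of detection in this tissue layer. Ptgis was at or below 0.856 CPM in 29 libraries and at 6.28 CPM in male vehicle replicate 1, the library rich in smooth muscle markers. Its change at 9 weeks did not pass (log2 fold change -0.99, SE 0.54, edgeR adjusted p = 0.228), and became -0.23 without that library, and at 15 weeks it was -0.51 (edgeR adjusted p = 0.527). In males alone it was -2.97 (edgeR adjusted p = 0.00954) at a mean under 1 FPKM, which is no DEG here, and -1.45 without that library (edgeR adjusted p = 0.15). Ptgds had 26 counts in all 30 libraries together, none in 23 of them and at most 13 in 1. All 5 female vehicle libraries were at 0 for Ptgds, and Ptgds was not tested. A gene at 0 may still have been present at up to 3 counts, 0.0974 to 0.324 CPM of the plain total, a limit that covers counting error only.

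Hpgd is the enzyme that inactivates PGE2, and in the colon it is known as a gene of differentiated surface epithelium that is often low in tumours. In vehicle, Hpgd was at 171.6, 454, 523, 202 and 377 CPM in females and 189, 225.5, 317, 221 and 203 CPM in males. At 9 weeks it was at 116, 140, 162.9, 132 and 462 CPM in females and 143.3, 102, 107, 105 and 113 CPM in males. At 15 weeks it was at 380.5, 176, 299, 367 and 161.7 CPM in females and 284, 197, 173, 158.6 and 145.7 CPM in males. In all, 9 of the 10 libraries at 9 weeks lay below the lowest vehicle library, the exception being female replicate 5, and in males the 5 libraries at 9 weeks lay below all 5 of vehicle. All 5 male libraries at 15 weeks again lay above all 5 of 9 weeks, by a narrow gap (145.7 against 143.3 CPM). That male difference did not pass its test (log2 fold change 0.75, SE 0.33, edgeR adjusted p = 0.33). The log2 fold change at 9 weeks was -0.90 (SE 0.24, edgeR adjusted p = 0.00903), and it was -1.18 without female 9 weeks replicate 5 (edgeR adjusted p = 8.84e-05).

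Within each sex the difference in Hpgd did not pass in the fit of all libraries. It was -0.77 in females (SE 0.33, edgeR adjusted p = 0.218) and -1.02 in males (SE 0.34, edgeR adjusted p = 0.0503). Without female 9 weeks replicate 5 both passed, at -1.34 in females (edgeR adjusted p = 0.00384) and at -1.02 in males (edgeR adjusted p = 0.0137). Without single libraries the male difference became a DEG in 8 of 30 fits, with edgeR adjusted p-values of 0.0137 to 0.0498.

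Hpgd varied with Car1, a carbonic anhydrase of the surface epithelium whose level differed widely between mice of a group. Car1 ran from 634 to 13120 CPM in vehicle, from 750 to 15450 CPM at 9 weeks and from 845 to 16320 CPM at 15 weeks, and the female 9 weeks replicate 5 library, with the highest Hpgd of its condition, also had its highest Car1. Car1 itself was not a DEG at 9 weeks (log2 fold change -0.79, SE 0.53, edgeR adjusted p = 0.342). It was chosen after its values were seen. Krt20, another gene of differentiated epithelium, was higher at 9 weeks (1052 ± 328 CPM in vehicle and 1566 ± 173 at 9 weeks, SD, n = 10, log2 fold change 0.59, edgeR adjusted p = 0.00482), opposite in direction to Hpgd, although within groups its r with Hpgd was 0.552. With the level of Car1 as a covariate Hpgd was lower by 0.65 on the log2 scale at 9 weeks (log2 fold change -0.65, edgeR adjusted p = 0.00108). Ptgs2 was then at 5.26, Ptges at 0.68 and Ptger3 at -1.24, and all 4 remained DEGs. At 15 weeks against vehicle Hpgd became a DEG with this covariate (log2 fold change -0.45, edgeR adjusted p = 0.0236).

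Ptger3 encodes EP3, the PGE2 receptor that mostly opposes cyclic AMP. In vehicle, Ptger3 was at 6.51, 5.92, 6.88, 5.25 and 6.08 CPM in females and 26.5, 5.14, 8.53, 9.32 and 9.70 CPM in males. At 9 weeks it was at 4.95, 2.71, 3.37, 1.91 and 5.59 CPM in females and 4.53, 3.23, 5.24, 2.42 and 2.85 CPM in males. At 15 weeks it was at 4.26, 3.94, 4.65, 3.03 and 4.10 CPM in females and 1.957, 5.55, 3.50, 7.16 and 2.74 CPM in males. Of 10 libraries 8 lay below the lowest vehicle library at 9 weeks, and again 8 of 10 at 15 weeks. In females the 5 libraries of 15 weeks and the 5 of vehicle did not overlap, although that difference did not pass its test (log2 fold change -0.62, SE 0.36, edgeR adjusted p = 0.527), in a comparison with 0.0984% of genes called, 0.0861% higher and 0.0123% lower.

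The fall of Ptger3 at 9 weeks had a log2 fold change of -1.21 (SE 0.25, edgeR adjusted p = 0.00138), and of -0.94 without male vehicle replicate 1, its highest library (edgeR adjusted p = 0.00317). In males it was -1.70 (SE 0.36, edgeR adjusted p = 0.00351) and -1.16 without that library (edgeR adjusted p = 0.0232), and in females -0.73 (SE 0.36, edgeR adjusted p = 0.298). Ptger3 was thus the receptor with the lower level after AOM/DSS at both times, and the size of its change depended on 1 vehicle library.

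Ptger4 encodes EP4, the PGE2 receptor of highest level here. In vehicle, Ptger4 was at 30.4, 40.6, 40.3, 55.3 and 24.6 CPM in females and 17.4, 21.9, 25.5, 34.7 and 21.6 CPM in males. At 9 weeks it was at 27.0, 30.8, 42.0, 37.1 and 41.7 CPM in females and 34.1, 34.0, 33.4, 42.2 and 38.4 CPM in males. At 15 weeks it was at 46.4, 46.6, 37.3, 31.5 and 51.1 CPM in females and 53.3, 42.3, 42.0, 33.4 and 37.7 CPM in males. The male vehicle libraries were the low ones, with 3 of 5 below the lowest female vehicle library, and at 15 weeks 4 of 5 male libraries lay above every male vehicle library. At 9 weeks the averaged change was small (log2 fold change 0.24, SE 0.13, edgeR adjusted p = 0.23). In females it was -0.10 (edgeR adjusted p = 0.849). In males alone it was 0.59 (SE 0.19, edgeR adjusted p = 0.0448), a call that was lost in 15 of the 30 fits that left out 1 library, with 0.49 and an edgeR adjusted p of 0.138 without male vehicle replicate 1. Ptger4 on chromosome 15 (GRCm38, 5206661 to 5244187, minus strand) overlaps Ttc33 on the other strand, and since the strand setting of the counting is not given in the sources used here, reads of the pair cannot be told apart in the overlap.

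Ptger2, the EP2 receptor, was at 0 to 1.12 CPM in all libraries, with 262 counts in 30 libraries, and at a mean under 1 FPKM throughout it could not be a DEG. Its log2 fold changes were 0.88 at 9 weeks (SE 0.55, edgeR adjusted p = 0.298) and -1.24 at 15 weeks (SE 0.63, edgeR adjusted p = 0.161). On the TPM scale Ptger4 exceeded Ptger3 in 9 of 10 vehicle libraries and in all 10 at each later time, with median ratios of 3.40, 8.42 and 8.41. Male vehicle replicate 1 was the library in which Ptger3 was above Ptger4.

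At 15 weeks against vehicle, averaged over the sexes, Ptger3 was lower and Ptger4 higher, and Ptgs2, Ptges and Hpgd did not pass. Ptger3 had a log2 fold change of -1.06 (SE 0.25, edgeR adjusted p = 0.00748) and Ptger4 of 0.47 (SE 0.13, edgeR adjusted p = 0.0189), 2 of 8 tested members against 7.35% of all genes, 3.46% higher and 3.89% lower. Without male vehicle replicate 1 they were -0.80 (edgeR adjusted p = 0.0205) and 0.42 (edgeR adjusted p = 0.0412). By sex, Ptger4 was at 0.79 in males (edgeR adjusted p = 0.0087) and 0.15 in females (edgeR adjusted p = 0.78). The difference between these responses did not pass (edgeR adjusted p = 0.561). Hpgd was at -0.30 (SE 0.23, edgeR adjusted p = 0.384), Ptges at 0.08 (SE 0.26, edgeR adjusted p = 0.864) and Ptgs2 at -0.11, where the 95% interval from -1.95 to 1.74 leaves changes of several fold possible in either direction. The members' median log2 fold change was -0.30 and that of all genes -0.03.

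The summed stromal markers also differed between these conditions. The smooth muscle markers summed to 78.9 to 6795 CPM in vehicle (at most 204.6 without male vehicle replicate 1) and 57.3 to 143.5 CPM at 15 weeks, and the fibroblast markers to 37.9 to 1416 CPM (median 137) and 28.6 to 186 CPM (median 77.6). With the smooth muscle score as a covariate neither receptor passed at 15 weeks, Ptger3 at -0.76 (edgeR adjusted p = 0.0852) and Ptger4 at 0.41 (edgeR adjusted p = 0.0833). With the fibroblast score Ptger3 passed and Ptger4 did not (0.39, edgeR adjusted p = 0.0749). The 4 calls at 9 weeks held under both scores.

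From 9 to 15 weeks Ptgs2 fell 47.9-fold (log2 fold change -5.58, SE 0.88, edgeR adjusted p = 0.00236), 1 of 8 tested members against 2.32% of all genes, 0.418% higher and 1.91% lower. Of the 10 libraries of 15 weeks 7 lay below the lowest of 9 weeks. Hpgd was 1.52-fold higher at 15 weeks (log2 fold change 0.60, SE 0.24) without passing (edgeR adjusted p = 0.122), and Ptges was lower (-0.81, SE 0.26, edgeR adjusted p = 0.0619). Without female 9 weeks replicate 5 both passed, Hpgd at 0.90 (edgeR adjusted p = 0.00515) and Ptges at -0.88 (edgeR adjusted p = 0.0175). Ptges also passed without male vehicle replicate 1 (-0.805), female vehicle replicate 1 (-0.805), male 9 weeks replicate 4 (-0.865) or female 15 weeks replicate 5 (-0.89), with edgeR adjusted p-values of 0.0323 to 0.0481. Ptger2 was lower by 2.12 on the log2 scale (log2 fold change -2.12, SE 0.60, edgeR adjusted p = 0.0415), at levels under 1 FPKM. Ptger4 and Ptger3, the DEGs at 15 weeks, did not pass between the times (0.22, edgeR adjusted p = 0.303, and 0.15, edgeR adjusted p = 0.744). The call of Ptgs2 was lost with the fibroblast score (-4.27, edgeR adjusted p = 0.204) or the level of Car1 (-4.41, edgeR adjusted p = 0.115) as a covariate. The members' median log2 fold change was 0.02 and that of all genes -0.02.

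The study set out to compare the sexes, so each of the comparisons was also made within a sex. At 15 weeks in males, Ptger3 was lower (-1.51, SE 0.36, edgeR adjusted p = 0.0084) and Ptger4 higher (0.79, SE 0.19, edgeR adjusted p = 0.0087), against 8.92% of genes called, 4.37% higher and 4.54% lower. Without male vehicle replicate 1 Ptger3 was at -0.97 and did not pass (edgeR adjusted p = 0.0647), while Ptger4 did (0.69, edgeR adjusted p = 0.0378). In females 0 of 8 members were DEGs at 15 weeks by edgeR, where 0.0984% of all genes were, 0 had an unadjusted p under 0.05, and DESeq2 called 0. From 9 to 15 weeks no member was a DEG within a sex by edgeR, where 0% of genes were called, although 3 members in each sex had an unadjusted p under 0.05 and DESeq2 called Ptgs2 in each (-5.69, DESeq2 adjusted p = 0.00761 in females, and -5.66, DESeq2 adjusted p = 0.00217 in males).

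By edgeR no member was a DEG between the sexes. In vehicle this was 0 of 8 members against 0.178% of genes (0.141% higher and 0.0369% lower in males), 4 had an unadjusted p under 0.05, and DESeq2 called Ptger4 and Ptges. Ptger4 was lower in vehicle males (-0.66, SE 0.19, edgeR adjusted p = 0.0726) and Ptges higher (1.17, SE 0.37, edgeR adjusted p = 0.0903). Ptgis was higher in all 5 vehicle males than in all 5 vehicle females (log2 fold change 3.53, edgeR adjusted p = 0.0473) but under 1 FPKM, and without male vehicle replicate 1 the difference was 2.01 (edgeR adjusted p = 0.421). At 9 weeks (0.0492% of genes, 0.0430% higher and 0.00615% lower in males) and at 15 weeks (0.184%, 0.123% higher and 0.0615% lower) edgeR and DESeq2 each called 0 members, and 1 had an unadjusted p under 0.05 at each time. The interaction, which tests whether the response to AOM/DSS differed between males and females, gave 0 members by edgeR and by DESeq2 at either time, with 2 and 1 members at an unadjusted p under 0.05, against 0% of genes called by edgeR. The smallest of its edgeR adjusted p-values was 0.499 at 9 weeks (Ptgis, -3.95) and 0.561 at 15 weeks (Ptger4, 0.63). Without male vehicle replicate 1 the 9-week value of Ptgis was -2.42 (edgeR adjusted p = 1). Ptgs2, whose fold was larger in females, had an interaction of -2.93 at 9 weeks (SE 1.62, edgeR adjusted p = 0.708), so the responses of the sexes were not shown to differ.

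Upstream and downstream of these genes, 23 other prostanoid genes were listed and 19 could be tested. At 9 weeks 2 rose and 3 fell, where 8.29% of all genes were DEGs, and at 15 weeks 1 rose and 1 fell, where 7.35% were. Without male vehicle replicate 1 these were 2 and 1 at 9 weeks and 1 and 0 at 15 weeks. The largest rise was of the secreted phospholipase Pla2g2a, which frees arachidonic acid, from 0.488 to 10.7 CPM in vehicle (median 4.39) to 6.77 to 49.0 CPM at 9 weeks (median 38.4) and 4.14 to 103 CPM at 15 weeks (median 22.4). Its log2 fold changes were 2.74 (SE 0.44, edgeR adjusted p = 7.86e-05) and 2.33 (SE 0.44, edgeR adjusted p = 0.00117). C57BL/6 mice carry a natural frameshift in Pla2g2a, so its transcript does not stand for an active enzyme in this strain. Its neighbour Pla2g5, another secreted phospholipase, rose at 9 weeks (0.99, SE 0.30, edgeR adjusted p = 0.0207). Pla2g5 spans Pla2g2a on the opposite strand of chromosome 4, and without a stated strand setting the reads of the pair cannot be told apart where they overlap.

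The genes that fell at 9 weeks were Fam213b, a prostamide and prostaglandin F synthase (-0.69, SE 0.18, edgeR adjusted p = 0.00818), Hpgds, the hematopoietic prostaglandin D synthase of tuft and mast cells (-0.58, SE 0.19, edgeR adjusted p = 0.0349), and Slco2a1, which carries prostaglandins into cells (-0.40, SE 0.13, edgeR adjusted p = 0.0358). Hpgds was also lower at 15 weeks (-0.65, SE 0.19, edgeR adjusted p = 0.0213). Without male vehicle replicate 1, Hpgds did not pass at 9 weeks (-0.35, edgeR adjusted p = 0.106) or at 15 weeks (-0.42, edgeR adjusted p = 0.0578), and Slco2a1 did not pass at 9 weeks (-0.32, edgeR adjusted p = 0.0848). Leaving out 1 library at a time ended the 9-week call of Hpgds in 6 of 30 fits and that of Slco2a1 in 11 of 30. From 9 to 15 weeks 0 of the 19 were DEGs by edgeR, against 2.32% of all genes, 5 had an unadjusted p under 0.05, and DESeq2 called 0. The medians of the 19 log2 fold changes were -0.06 at 9 weeks and -0.01 at 15 weeks. The constitutive PGE2 synthases Ptges2 and Ptges3 did not pass at 9 weeks (-0.17, edgeR adjusted p = 0.146, and 0.08, edgeR adjusted p = 0.664), and on the TPM scale their vehicle medians, 5.24 and 22.4, were above the 0.743 of Ptges.

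**Figure D3:**
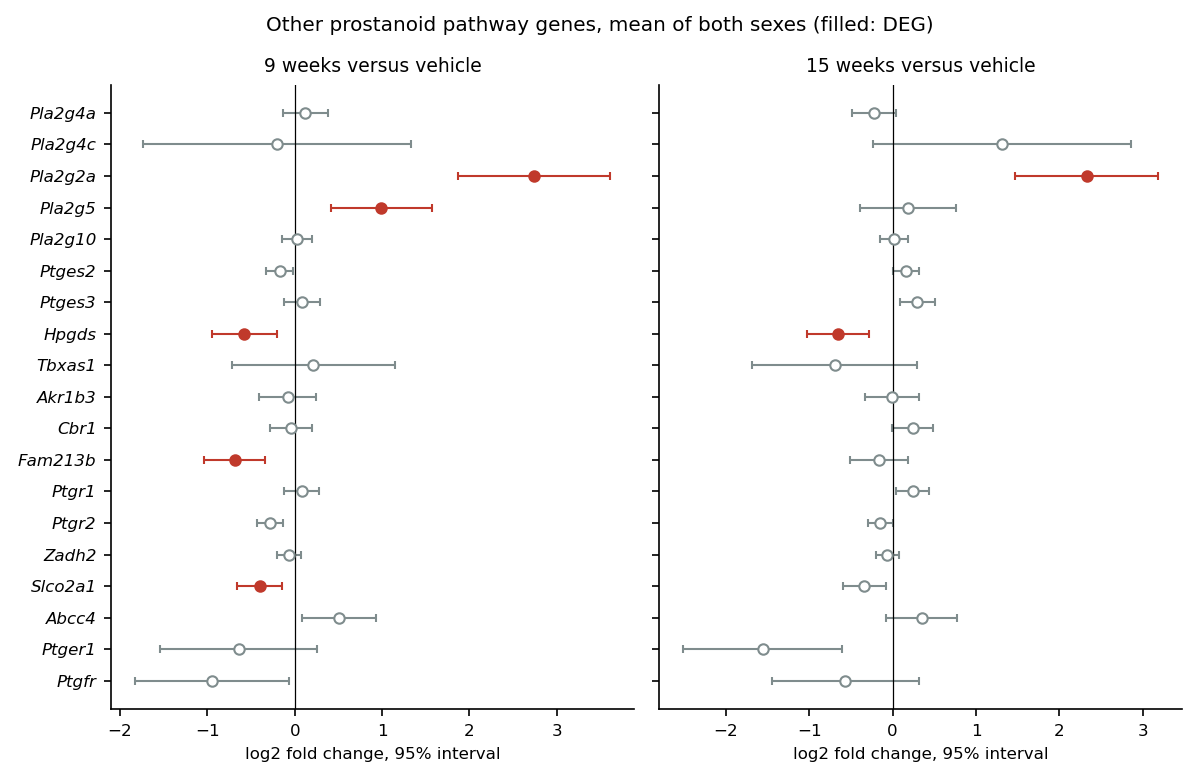
Log2 fold changes of the 19 tested prostanoid genes outside the 9, averaged over the sexes, at 9 and 15 weeks against vehicle, with 95% intervals and DEGs as filled points. Pla2g2a lies farthest to the right at both times (2.74 and 2.33).

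The neighbouring branch of arachidonic acid metabolism, the lipoxygenases and leukotriene genes, gave no DEG. Of 12 genes 9 were tested, and 0 passed by edgeR or by DESeq2 in any of the 3 averaged comparisons, with 3, 2 and 2 genes at an unadjusted p under 0.05 by edgeR. Of all genes 8.29%, 7.35% and 2.32% were DEGs there, so 0 of 9 cannot be told apart from that background. Alox15, a lipoxygenase, came nearest at 9 weeks (1.80, SE 0.63, edgeR adjusted p = 0.0501), at a mean under 1 FPKM.

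How the members varied from mouse to mouse was described by Pearson's r over the 30 libraries on log2 CPM, after the mean of each group of 5 was taken off. The points share tissue composition and library depth. The genes most like Ptgs2 were Il1b, an inflammatory cytokine (r = 0.93), Tnfaip6 (0.887) and Nlrp3, an inflammasome sensor (0.878). Its r with the neutrophil score was 0.878. Those most like Hpgd were Slc35f5 (0.935), Abhd3 (0.915) and Bche (0.915), and Hpgd had an r of 0.824 with Car1. Over the 9 marker scores its r ran from -0.647 (macrophage) and -0.578 (neutrophil) to 0.527 (epithelium). Among those most like Ptges were BC021614 (0.89) and C1ra, a complement protease (0.89), and its r with Car1 was -0.709. Its r with the scores was 0.759 for macrophage, 0.752 for enteric glia and neuron, 0.704 for endothelium, 0.694 for fibroblast and -0.648 for epithelium.

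For the less abundant members the nearest genes were Adamdec1 (0.849), Srpx2 (0.832) and Timp2 (0.827) for Ptgs1, and Anxa1 (0.801), Msrb3 (0.778) and Flna (0.776) for Ptgis. For the receptors they were Arap3 (0.808), She (0.777) and Rab7b (0.774) with Ptger2, E130215H24Rik (0.782), Calcb (0.729) and Mylip (0.724) with Ptger3, and Boc (0.727), RP24-224N3.8 (0.701) and 4930513N10Rik (0.688) with Ptger4. Without the 2 farthest libraries r fell to 0.661 for Ptgis with Anxa1, 0.607 with Msrb3 and 0.631 with Flna, and to 0.653 for Ptger3 with E130215H24Rik. It was then 0.892 for Ptgs2 with Il1b, 0.911 for Hpgd with Slc35f5 and 0.762 for Ptger4 with Boc. Among the members themselves the strongest relation was inverse, between Ptges and Hpgd (-0.767), followed by Ptgs2 with Ptges (0.655), Ptges with Ptgis (0.559) and Ptgs2 with Hpgd (-0.558). These values include female 9 weeks replicate 5, highest in Hpgd and lowest in Ptges of its group, and are not given without it. Within a group, colons with more Ptgs2 and Ptges tended to have less Hpgd, while the other cyclooxygenase, Ptgs1, had an r of 0.149 with Hpgd. Ptger3 and Ptger4 had an r of -0.325.

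**Figure D4:**
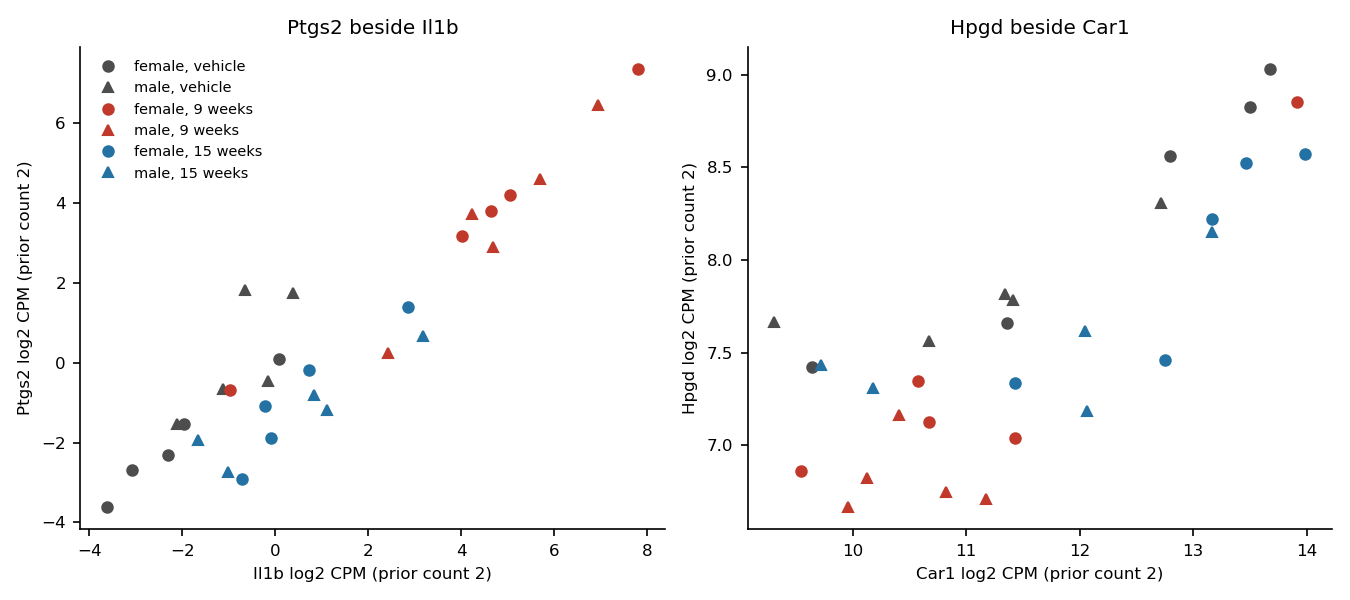
Left, Ptgs2 against Il1b, and right, Hpgd against Car1, in log2 CPM (prior count 2), 1 point per library, coloured by condition with circles for females and triangles for males. In each panel the female 9 weeks library that lies apart from the other libraries of its condition is replicate 5, with Ptgs2 at 0.537 CPM and Hpgd at 462 CPM.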

How the data were processed

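RNA was extracted from colon epithelial-layer scrapes of 30 mice. Per the labels and methods, the authors made stranded poly(A) libraries, sequenced them on an Illumina NovaSeq, aligned reads to GRCm38 with STAR and did not remove duplicates. The submitters' notes also name bcl2fastq 2.20.0.422, CASAVA, Trim Galore, featureCounts and StringTie. The deposited counts are the authors' raw featureCounts per gene. The FPKM and TPM values are the authors' deposited StringTie estimates per library, used for the expression minimum and for levels between genes, and repeated lines of a gene (11 to 20 per file) were added. The coverage signal deposited beside them was not used. The strand setting of the counting is not given in the sources used here.

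Samples were grouped from the authors' labels (6 groups of 5). Counts were tested with edgeR 4.0.16 in R 4.3.3 (quasi-likelihood F-test, 1 coefficient per group, all 30 libraries, filterByExpr, TMM factors 0.832 to 1.10, common biological coefficient of variation 0.319), which left 16261 genes, and p-values were adjusted by Benjamini-Hochberg over all of them in each of 14 comparisons. DEGs met the study's thresholds: adjusted p under 0.05, log2 fold change beyond 0.4, and a mean of 1 FPKM in a compared condition. CPM is counts scaled to the library total after TMM, with a prior count of 2 on the log2 scale. The 95% intervals are normal intervals from the SE. The fit recovered known changes in simulated data. No within-group pair of libraries was a copy: chi-square per degree of freedom was 13.7 to 297 over 60 pairs. Replicates are separate mice, and counts without molecular identifiers are not independent molecules. The paper describes its level of duplicate reads as high, so limits drawn from few counts are less certain than the counts alone imply.

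Alternatives were DESeq2 1.42.0, other scaling, filters and sample sets, the replicate number as a block, stromal scores as covariates, leaving out each library, and, chosen after seeing the data, leaving out the vehicle library of highest fibroblast score in each sex, the level of Car1 as a covariate, and the marker list counts without each library that stands apart. All 9 members are named throughout. Of the other prostanoid and of the leukotriene lists, genes that were DEGs in an averaged comparison are named, and Ptges2, Ptges3 and Alox15 were added after their values were seen, as were Car1 and Krt20. The 3 most similar genes per member go by Pearson's r, and 1 of those of Ptges is not reported here. Members and lists were chosen with earlier results of these data known. Promoter windows are from RefSeq (GRCm38.p6).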

Additional observations from a re-analysis of the deposited data

Results flagged for a closer look

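Dixon's ratio was taken on log2 CPM in each group of 5 mice and for each of the 8 tested genes. It sets the gap between the most extreme library and its neighbour against the group's range. Its 95% critical value was passed in 5 of 48 groups, where chance alone passes about 1 in 20. Hpgd in female AOM/DSS 9 weeks replicate 5 was at 462 CPM against a group median of 140 (ratio 0.756). In the same library Ptges was lowest, at 2.85 CPM against 7.65 (ratio 0.739). The other flags were of Ptgis, which is at a few counts in most libraries: male vehicle replicate 1 at 6.28 CPM against 0.784 (ratio 0.73), female vehicle replicate 1 at 0.317 CPM against 0.107 (ratio 0.811), and female AOM/DSS 15 weeks replicate 1 at 0 against 0.214 CPM (ratio 0.753).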

How the results depend on the processing

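The 4 member DEGs of 9 weeks against vehicle (Ptgs2, Ptges, Hpgd and Ptger3) were called under all 11 alternatives and without each of the 30 libraries (4 to 4 members). At 15 weeks the 2 members became 0 with the smooth muscle score and 1 (Ptger3) with the fibroblast score or without both high-fibroblast vehicle libraries (2 to 2 without single libraries). With the level of Car1 as a covariate Hpgd was also called lower at 15 weeks (-0.45, edgeR adjusted p = 0.0236). From 9 to 15 weeks the 1 member became 2 with DESeq2, in the compared libraries only and without both high-fibroblast libraries (Ptges and Ptgs2) and without the FPKM minimum (Ptger2 and Ptgs2), and 0 with the fibroblast score or Car1 (1 to 3 without single libraries). Within a sex, the 2 members of 9 weeks in females became 1 with either stromal score or in the compared libraries only (1 to 3), the 3 in males ran from 1 to 4, the 2 of 15 weeks in males became 0 with either stromal score or in the compared libraries only and 1 without both high-fibroblast libraries (1 to 2), and the 0 from 9 to 15 weeks became 1 in each sex with DESeq2 (0 to 2 in females without single libraries). Between vehicle males and females the 0 became 2 with DESeq2, and 1 without the FPKM minimum or without both high-fibroblast libraries (0 to 2). The 1348, 1195 and 378 DEGs among all genes of the 3 averaged comparisons ran from 1152 to 1684, 855 to 1467 and 95 to 1185 without single libraries, lowest in the last without female 9 weeks replicate 4 and highest without female 9 weeks replicate 5. At 9 weeks there were 2025 without the fold change minimum. At 15 weeks there were 2184 without it, 1839 without the FPKM minimum, 605 with the smooth muscle score and 672 without both high-fibroblast libraries. From 9 to 15 weeks there were 576 with DESeq2, 223 without the filter, 703 without the FPKM minimum, 593 without both high-fibroblast libraries, 20 with the smooth muscle score and 0 with the fibroblast score or Car1. Some changes that never passed turned sign. At 15 weeks Ptgs2 was at 0.50 with the smooth muscle score, 1.29 with the fibroblast score, 0.79 without both high-fibroblast libraries and 0.85 with Car1, Ptgs1 at 0.069 and 0.033 with the smooth muscle and fibroblast scores, and Ptgis at 0.66, 0.62 and, without both high-fibroblast libraries, 0.55. Ptgis at 9 weeks was then at 0.062, and Ptgs1 from 9 to 15 weeks at 0.22 and 0.35 with the smooth muscle and fibroblast scores. Without single libraries Ptgs2 at 15 weeks ran from -0.67 to 0.55, Ptges from -0.0058 to 0.29 and Ptgis from -0.66 to 0.25, Ptgs1 at 9 weeks from -0.31 to 0.0013 and from 9 to 15 weeks from -0.22 to 0.010. The cause of these changes was not tested. Of 483 values of single genes under the alternatives 424 kept their direction and call, 33 lost a call, 14 gained one and 12 turned sign. The replicate numbers did not pair the mice: over 75 same-numbered pairs the correlation of deviations had a median of -0.0262 (-0.581 to 0.467), against 0.00666 for other pairs. The replicate block gave 1281, 934 and 268 DEGs and ended the calls of Hpgds (-0.55, edgeR adjusted p = 0.0508) and Slco2a1 (-0.38, edgeR adjusted p = 0.0529) at 9 weeks and of Ptger4 in males at 9 weeks (0.60, edgeR adjusted p = 0.0592). Depth limits Ptgds, Ptgis, Ptger2 and vehicle Ptgs2, which had few counts per library.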
